A study of Homo sapiens with 20 samples.

Results

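The chromosome 8 summits of MYC and RNA polymerase II in PC-3 cells are described here, separately for the short arm (8p) and the long arm (8q). A summit is the single base at which a called ChIP-seq peak is highest. Every chromosome 8 summit of the 12 MYC and POL2 libraries was taken, and the arms were divided at 45 Mb of GRCh38. This gave 3626 summits of the 86985 on chromosomes 1 to 22 and X, of which 712 lay on 8p and 2914 on 8q. The MYC libraries gave 246 of them and the POL2 libraries 3380. PC-3 is an established prostate cancer cell line. Chromatin was precipitated with an antibody to c-Myc (MYC, Abcam AB32072) or to RNA polymerase II (POL2, Abcam AB26721), from wild-type cells (WT) or from SLK-knockout cells (SLK-KO), with 3 libraries for each antibody and genotype. SLK is a protein kinase, and the labels also call the knockout cells PSD10. Whether those cells are a single clone is not given in the sources used here. The 6 IgG and 2 Input libraries of the 20 samples were not used.

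MYC is a transcription factor that binds DNA together with MAX, often at the E-box CACGTG in promoters that are already active, and RNA polymerase II is the enzyme that transcribes protein-coding genes. In prostate cancer, losses on 8p and gains on 8q are among the common chromosome changes. The MYC gene lies on 8q. Copy number was not measured here and its part in the results below was not tested.

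Values are relative summit densities unless stated otherwise. A density is an arm's percentage of a library's summits on chromosomes 1 to 22 and X, divided by the arm's percentage of the protein-coding genes on the same chromosomes. A value of 1 is the genome mean. Of 19970 coding genes, 284 (1.42%) lay on 8p and 418 (2.09%) on 8q. The lists differed greatly in length, from 192 to 1413 MYC summits and from 5015 to 18962 POL2 summits, and the 3 SLK-KO MYC lists were all longer than the 3 WT lists. Reads are not in the lists, so depth is unknown, and a share near 0 means few called peaks and not absence of binding. Intervals cover counting error only. The labels call the replicates biological and do not say whether they came from separate cultures.

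The long arm held more summits than its genes would give, for both antibodies. MYC density on 8q was 3.53, 3.98 and 3.29 in the WT libraries and 2.56, 2.37 and 2.30 in the SLK-KO libraries. These densities rest on 26, 16 and 18 summits in WT and on 65, 70 and 47 in SLK-KO. POL2 density on 8q was 1.51, 1.92 and 1.65 in WT, from 540, 202 and 341 summits. It was 1.43, 1.55 and 1.53 in SLK-KO, from 568, 500 and 521 summits. All 12 libraries lay above the genome mean, and every MYC library lay above every POL2 library. Per Mb, POL2 had 5.39, 2.02 and 3.41 summits on 8q in WT, against 5.68, 1.65 and 3.28 on the arms of other chromosomes. In SLK-KO it had 5.67, 4.99 and 5.20 per Mb, against 6.32, 5.12 and 5.40. The POL2 excess on 8q is thus one per gene, and was not seen per Mb in WT replicate 1 or in SLK-KO. WT MYC replicate 2 has the shortest list of all, and its 8q share of 8.33% had a Wilson 95% interval of 5.19 to 13.1%. The lower bound of that interval still exceeded the 2.09% of genes on 8q.

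The short arm held fewer summits than its genes would give. The MYC lists had 0, 0 and 1 summits on 8p in WT and 1, 2 and 0 in SLK-KO. The corresponding densities were 0, 0 and 0.269 in WT and 0.0580, 0.0995 and 0 in SLK-KO. The upper Wilson 95% bound of the 8p share was 0.392% to 0.515% in the 3 SLK-KO MYC lists, below the 1.42% of genes on that arm. In WT MYC replicates 2 and 3 the bounds of 1.96% and 2.14% included it, so those shorter lists do not separate 8p from the genome mean by counting error alone. POL2 density on 8p was 0.626, 0.533 and 0.576 in WT, from 152, 38 and 81 summits. It was 0.612, 0.571 and 0.636 in SLK-KO, from 165, 125 and 147 summits. The 6 POL2 libraries therefore spanned a narrow range below the genome mean, although their lists differed several-fold in length.

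**Figure D1:**
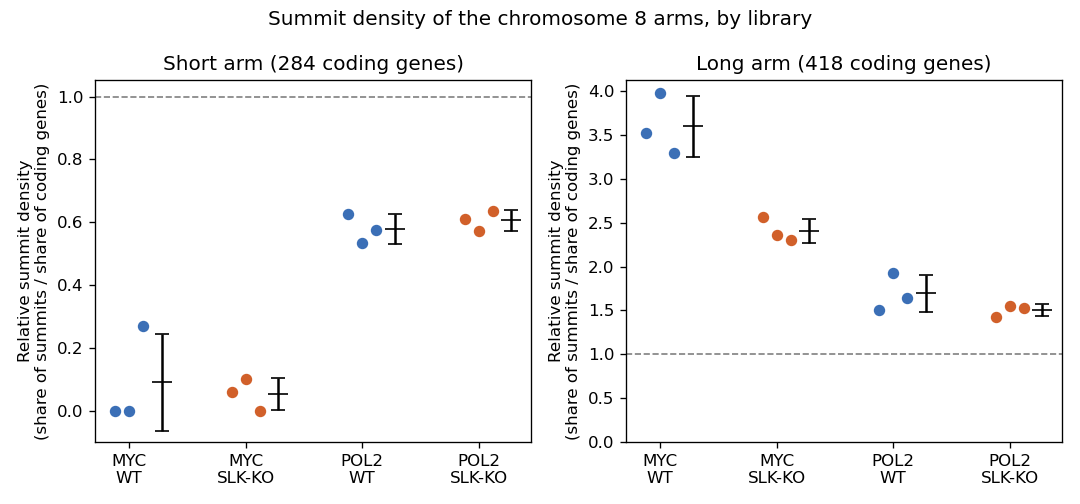
Relative summit density (1, dashed line, is the genome mean) of the short and the long arm of chromosome 8 in each MYC and POL2 library, with 3 points per group and the mean ± SD in black. All 12 libraries lie below 1 on the short arm and above 1 on the long arm, and the 2 panels have different scales.

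Within each library the 2 arms were set against each other. The POL2 density of 8q exceeded that of 8p in 6 of 6 libraries, by 0.819 to 1.39, with a mean difference of 1.01 (exact sign-flip test over 6 libraries, two-sided p = 0.031, adjusted over 18 chromosomes 0.0433). The long arm was higher by this test on 27.8% of the 18 chromosomes with 2 arms, and the POL2 difference of chromosome 8 was the largest of the 18. In all, the test called 13 of the 18 for POL2, 8 of them with the short arm higher. The POL2 p is the smallest 6 libraries allow, so its adjusted value rests on how many chromosomes reach it. The MYC density of 8q exceeded that of 8p in 6 of 6 libraries, with a mean difference of 2.93 (exact sign-flip p = 0.031, adjusted 0.0625). That p is the smallest 6 libraries allow, and after adjustment no MYC difference passed on any of the 18 chromosomes (0%), against 9 at an unadjusted p under 0.05. The MYC difference of chromosome 8 was also the largest of the 18.

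MYC and POL2 were distributed differently over both arms. On 8q the MYC density exceeded that of POL2 by 1.41 on average over the genotypes (exact permutation of the antibody labels within genotype, two-sided p = 0.005, adjusted over 41 arms 0.0103). On 8p the MYC density was below that of POL2 by 0.521 (difference -0.521, exact permutation p = 0.005, adjusted 0.0103). MYC was above POL2 by this test on 19.5% of the 41 arms and below it on 39%, so a lower MYC density as such was common. When every list was cut to its 192 best-scored summits, the 8q values were 15, 16 and 14 summits in WT MYC and 15, 15 and 9 in SLK-KO MYC. The same cut left 7, 5 and 8 summits on 8q in WT POL2 and 4, 5 and 6 in SLK-KO POL2. At this equal length every MYC library kept more 8q summits than every POL2 library (density difference 2.03, exact permutation p = 0.005, adjusted 0.0171). On 8p, 5 of the 6 MYC lists then held 0 summits and WT MYC replicate 3 held 1, while each POL2 list held 1.

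Between the genotypes, no arm density passed the test. With full lists the libraries did not overlap for MYC on 8q, and with equal-length lists they did not overlap for POL2 on 8q. The 8q density of MYC was 3.60 ± 0.349 over the 3 WT libraries and 2.41 ± 0.136 over the 3 SLK-KO libraries (SD; difference -1.19). The 3 SLK-KO libraries lay below the 3 WT libraries, with an exact permutation p of 0.1, the smallest that 3 against 3 allows (adjusted 0.256). All SLK-KO libraries lay below all WT libraries on 14.6% of arms for MYC. With lists cut to 192 summits the groups overlapped, at 3.73 ± 0.249 (SD) in WT against 3.23 ± 0.862 in SLK-KO. At that length SLK-KO replicates 1 and 2 had the same density of 3.73 as WT replicate 1, and replicate 3 stood lower at 2.24. The 8q density of POL2 averaged 1.69 ± 0.211 (SD) in WT against 1.51 ± 0.0649 in SLK-KO, and the libraries overlapped (difference -0.19, n = 3 each, exact permutation p = 0.3, adjusted 0.456). Paired by replicate number, it was lower in SLK-KO in 3 of 3 pairs (exact sign-flip p = 0.25, the smallest 3 pairs allow, adjusted 0.427). With lists cut to 5015 summits it was 1.59, 1.92 and 1.68 in WT and 1.50, 1.51 and 1.56 in SLK-KO, without overlap (difference -0.21, exact permutation p = 0.1, adjusted 0.195). All SLK-KO libraries then lay below all WT libraries for POL2 on 29.3% of arms.

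On 8p the genotypes were not told apart. The 8p density of POL2 averaged 0.578 ± 0.0466 (SD) in WT against 0.606 ± 0.0329 in SLK-KO (n = 3 each; exact permutation p = 0.5, adjusted 0.683). That of MYC was 0.0898 ± 0.156 and 0.0525 ± 0.050 (SD, n = 3 each; exact permutation p = 1, adjusted 1), from 1 and 3 summits in all. With lists cut to 5015 summits, the POL2 libraries had 36, 38 and 41 summits on 8p in WT and 39, 35 and 37 in SLK-KO. The effect of genotype on density did not pass a test of its difference between the antibodies, with an exact permutation p of 0.625 on 8p and 0.09 on 8q.

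Among the 41 arms, chromosome 8 stood at both ends of the MYC order. The 8q arm had the highest mean MYC density over 6 libraries (3.01, range 2.30 to 3.98). It was followed by 18p at 2.62 (1.58 to 3.48), 7p at 2.51 (1.91 to 3.50) and 21q at 2.17 (1.73 to 2.84). These ranges overlap, so the order among them is not resolved, and in SLK-KO 18p was higher at 2.70 against 2.41 for 8q. Library by library, 8q ranked 1, 1 and 2 in WT MYC and 1, 3 and 2 in SLK-KO MYC. The 8p arm had the lowest mean MYC density, 0.0712, next to 4p at 0.109 and 9p at 0.160, whose ranges also include 0. In WT, 8p was the fifth lowest at 0.0898, above 12p at 0.0650 and 16q at 0.0495, and above 4p and 9p, which had 0 summits in all 3 MYC lists.

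In the POL2 order the arms were less extreme. The 8q arm was the fourth highest at a mean density of 1.60 (range 1.43 to 1.92), after 18p at 2.03, 10p at 1.92 and 7p at 1.69. The range of 8q overlaps those of all 3. The 8p arm was the fourth lowest at 0.592 (range 0.533 to 0.636), above 17p at 0.575, 16p at 0.541 and Xq at 0.496. Its range overlaps those of all 3. The 10p arm had a higher POL2 density than 8q but a lower mean MYC density of 1.49, and 9p had a POL2 density of 0.913 with a MYC density of 0.160.

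**Figure D2:**
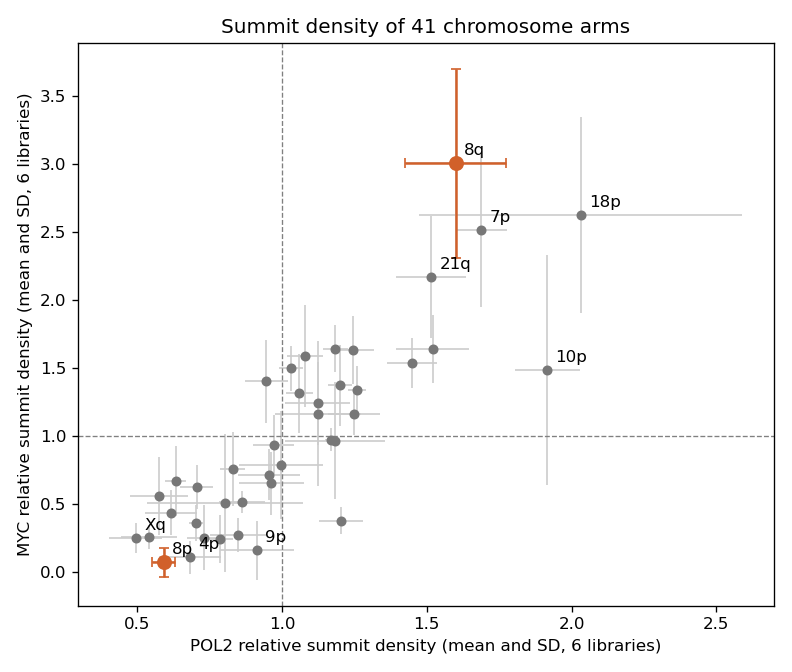
Mean relative density of MYC summits (vertical) against that of POL2 summits (horizontal) for 41 chromosome arms, with bars of 1 SD over 6 libraries on each axis and dashed lines at the genome mean of 1. The long arm of chromosome 8 is highest for MYC at 3.01 and the short arm lowest at 0.0712, while 18p lies farthest right for POL2 at 2.03.

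The arms were then divided into 16 windows, of 10 Mb except for the last window of each arm and the first of 8q. On 8p the density was lowest toward the tip of the arm. The window from 0 to 10 Mb holds 72 coding genes and had 6 POL2 summits over all 6 libraries, at 2, 0 and 0 in WT and 1, 2 and 1 in SLK-KO. Its mean POL2 density of 0.0167 ranked 307 of the 308 windows of the genome with at least 5 coding genes. The window from 10 to 20 Mb had a POL2 density of 0.243, rank 303. From 20 to 30 Mb, POL2 density was 1.05, from 30 to 40 Mb 0.805, and from 40 to 45 Mb 1.04. The low POL2 density of 8p thus lay in its outer 20 Mb, whereas the 3 inner windows were near the genome mean. MYC had 4 summits in the 3 middle windows together and 0 in the first and the last.

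The distances between neighbouring POL2 sites show the same. A site is a group of summits from the 6 libraries of an antibody, each 250 bp or less from the next. After a site at position 274105, whose nearest coding gene is ZNF596, the next POL2 site lay at 8386457, a gap of 8.11 Mb with 65 coding genes. After that site none was called until 13353560, a further 4.97 Mb with 34 coding genes. For MYC, the first site on chromosome 8 lay at 19013624, after 120 coding genes, and none was called between 31034036 and 48923591, with 72 coding genes between. The place of the arm boundary made little difference for POL2, since no site lay between 43140719 and 47260756. That last interval includes the centromere.

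On 8q, MYC was concentrated in the outer windows. MYC had 2 summits from 45 to 60 Mb over all 6 libraries. The window from 100 to 110 Mb, with PABPC1, EIF3E and AZIN1, had MYC densities of 5.04, 6.93 and 5.10 in WT and 4.39, 4.71 and 4.09 in SLK-KO. Its mean ranked 4 of 308 windows. The window from 120 to 130 Mb holds the MYC gene and PVT1, and had MYC densities of 3.34, 9.18 and 9.0 in WT and 6.30, 4.99 and 3.61 in SLK-KO. Its mean ranked 3 of 308. These values rest on 2 to 15 summits per library and window, and the WT values of the window with the MYC gene spread widely.

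The last window of 8q, from 140 Mb to the end at 145.139 Mb, holds 106 coding genes. Its MYC density was 5.89, 5.89 and 5.05 in WT, from 11, 6 and 7 summits, and 2.95, 2.67 and 3.09 in SLK-KO, from 19, 20 and 16. Its POL2 density was 1.27, 2.14 and 1.62 in WT and 1.00, 1.13 and 1.09 in SLK-KO. All SLK-KO libraries lay below all WT libraries for both antibodies. That remained so with equal-length lists, at 5.56 ± 0.567 against 2.62 ± 1.13 for MYC and 1.69 ± 0.433 against 1.15 ± 0.0782 for POL2 (SD, n = 3 each). Without this window, the SLK-KO minus WT difference of MYC over the rest of 8q was -0.73 in place of -1.19, and that of POL2 was -0.05 in place of -0.19. The MYC minus POL2 difference on 8q was then 0.95 in place of 1.41, with the same exact permutation p of 0.005 (adjusted 0.0103).

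By the within-genotype permutation, MYC density exceeded POL2 density in 3 of the 16 windows, against 11% of all 308 windows. These were the windows from 100 to 110 Mb, 120 to 130 Mb and 140 Mb to the end (exact permutation p = 0.005, adjusted 0.0145 in each). MYC was below POL2 in 6 of the 16, against 35.7% of all windows. These were 4 of the 5 windows of 8p and the windows from 45 to 50 and 50 to 60 Mb on 8q. The SLK-KO libraries all lay below the WT libraries for MYC in 3 of the 16 windows (60 to 70, 100 to 110 and 140 Mb to the end), against 11.4% of all windows. From 60 to 70 Mb this rests on 1, 1 and 1 MYC summits in WT against 2, 3 and 2 in the longer SLK-KO lists. That window was not called with equal-length lists. The SLK-KO libraries all lay above WT for MYC in 0 of the 16, against 16.9%. For POL2 they lay below in 1 (140 Mb to the end), against 13%, and above in 1 (60 to 70 Mb), against 18.2%. With equal-length lists the POL2 count below WT was 4 of 16, against 15.6%, and the MYC count was 1 of 16, against 1.62%.

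**Figure D3:**
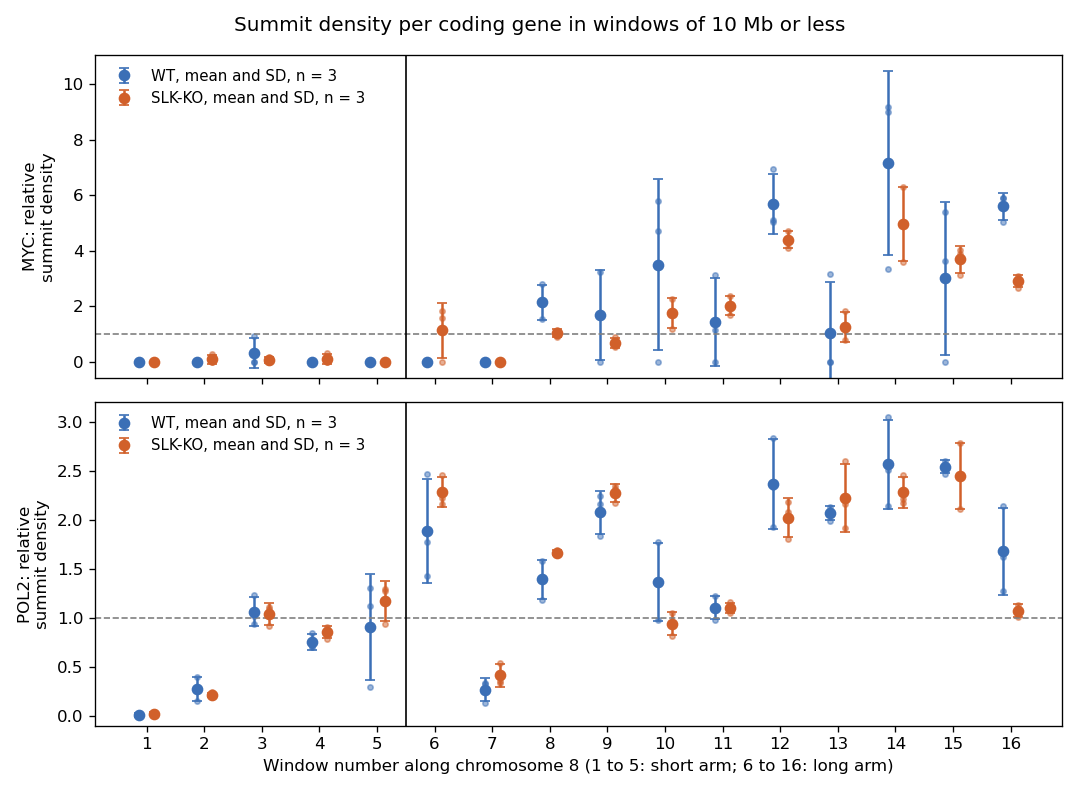
Relative density of MYC (upper panel) and POL2 (lower panel) summits in 16 windows along chromosome 8, with the mean ± SD of 3 libraries per genotype as large points, single libraries as small points, the genome mean dashed and the boundary of the arms as a vertical line. Window 1 is near 0 for both antibodies, and window 2 is near 0 for MYC with a mean of 0.243 for POL2. MYC has 2 summits over 6 libraries in window 6 and 0 in window 7. Window 16 (140 Mb to the end) has all SLK-KO libraries below all WT libraries in both panels.

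Counted by gene, the arms differed in the same way. A gene was counted where a summit lay within 1 kb of any of its transcription start sites (TSS). MYC was found at 4 of 284 coding genes of 8p in at least 1 library (1.41%) and at 76 of 418 of 8q (18.2%), against 9.69% of all coding genes. POL2 was found at 107 genes of 8p (37.7%) and 244 of 8q (58.4%), against 53.9% of all. POL2 was called in all 6 libraries at 16 genes of 8p (5.63%) and 118 of 8q (28.2%), against 18.1%. MYC was called in all 6 libraries at 0 genes of 8p and 6 of 8q (1.44%), against 0.496%.

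The percentage of 8q genes with a MYC summit was 4.07, 2.87 and 3.59 in WT and 12, 11.7 and 8.61 in SLK-KO. The groups did not overlap, and the SLK-KO lists were longer. Over all coding genes the groups did not overlap either, at 1.04 to 1.83% in WT against 4.67 to 6.4% in SLK-KO. The separation was thus not particular to 8q. With 192 summits a list, the percentage of 8q genes averaged 2.47 ± 0.691% (SD, n = 3) in WT against 2.15 ± 0.478% in SLK-KO, and the libraries overlapped. Among the genes that had POL2 in any library, MYC was at 6.01 ± 1.03% on 8q in WT and 18.3 ± 3.10% in SLK-KO, against 2.60 ± 0.717% and 10.1 ± 1.57% over all arms (SD, n = 3 each). On 8p it was at 0.312 ± 0.540% and 0.935 ± 0.935% of such genes (SD, n = 3 each). The arms therefore also differed in MYC among genes with a called POL2 peak.

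**Figure D4:**
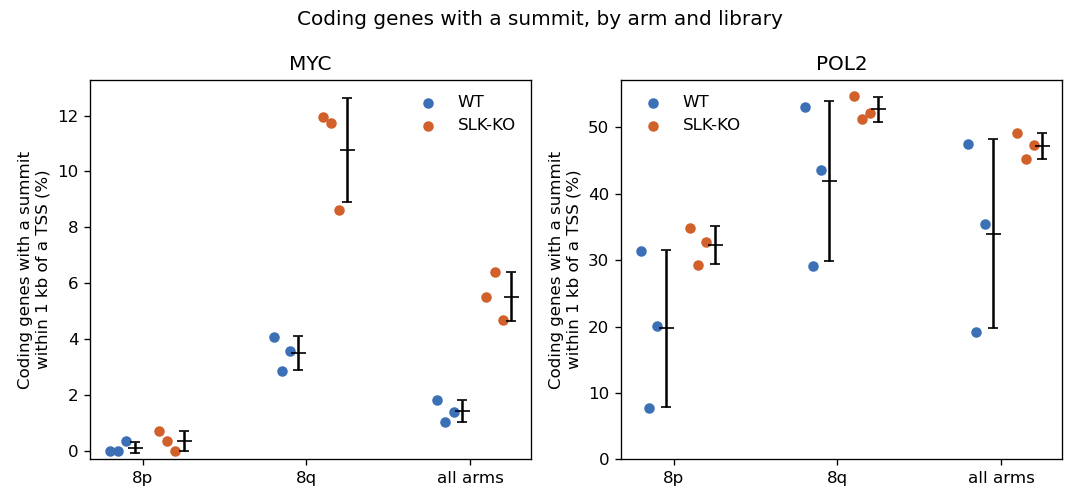
Percentage of coding genes with a MYC (left) or POL2 (right) summit within 1 kb of a TSS, in each library, for the short arm, the long arm and all 41 arms, with the mean ± SD of 3 libraries in black. The MYC values of the short arm stay below 1% in all 6 libraries, while those of the long arm run from 2.87% to 12%.

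The 4 MYC sites of 8p were each called in 1 library. POLR3D encodes a subunit of RNA polymerase III, and the only WT site lay 30 bp from its TSS (chromosome 8, 22245205, in the UTR; rank 167 of 261 in WT replicate 3). The site at PSD3 lay in the UTR 79 bp from a TSS (19013624, rank 306 in SLK-KO replicate 2). WRN encodes a DNA helicase, and shares its promoter region with PURG. Its site lay in an intron of WRN, 226 bp from the TSS (31034036, rank 705 in SLK-KO replicate 1). The last lay outside coding genes, 2495 bp from DUSP4 and 9 bp from the start of the non-coding gene ENSG00000260253 (29353179, rank 1129 in SLK-KO replicate 2). POL2 was found at PSD3 and POLR3D in all 6 libraries. None of the 4 MYC sites recurred in a second library.

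Of 18 genes of 8p outside 8p11 chosen by their known roles, POL2 was found at 8, 5 and 5 in WT and 11, 9 and 10 in SLK-KO. Of all coding genes, 47.5, 19.1 and 35.4% had POL2 in the WT libraries and 49.1, 45.3 and 47.3% in the SLK-KO libraries, in the same order. It was at TNFRSF10B (a death receptor), CLU (a secreted chaperone) and DUSP4 (a phosphatase of MAP kinases) in all 6 libraries. The median rank of the DUSP4 promoter site was 384 in its lists. No library had POL2 within 1 kb of DLC1, TUSC3, LZTS1, NRG1, CTSB, MSRA or GATA4, of which CTSB, MSRA and GATA4 lie in the gap described above. The nearest POL2 summit lay 1667835 bp from MSRA and 1484027 bp from CTSB, a lysosomal protease.

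POL2 was found in 3 of 3 SLK-KO and 0 of 3 WT libraries at several genes of 8p, among them R3HCC1, SLC25A37 (a mitochondrial iron carrier), FZD3 (a Wnt receptor) and LETM2. The SLC25A37 site (23541538 to 23541705, in an exon) lay 59 bp from a TSS and had ranks of 9780, 7036 and 13936. The nearest WT POL2 summit was 83954 bp away. All 3 ranks lie beyond the 5015 summits of WT POL2 replicate 2, and the last also beyond the 9887 of replicate 3, but all lie within the 17078 of replicate 1. Genes with this pattern make up 1.76% of the coding genes of 8p and 1.67% of those of 8q, against 1.55% of all coding genes.

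Of 10 genes of 8p11, near the centromere, POL2 was found at 9 in every library except WT replicate 2, where it was at 4, against 19.1% of all coding genes in WT replicate 2 and 35.4 to 49.1% in the others. FGFR1 (a growth factor receptor), ASH2L (a subunit of histone methyltransferase complexes), TACC1 and KAT6A (a histone acetyltransferase) had it in all 6. SFRP1, a secreted inhibitor of Wnt signalling, had it in none. MYC was found in any library at 0 of these 10 genes and at 1 of the 18 above, which was WRN. The background in at least 1 library was 1.41% of the coding genes of 8p and 9.69% of all coding genes. The best-ranked POL2 sites of 8p in all 6 libraries were those near TTI2 and SNORD13, at DUSP4, near POLR3D and MIR320A, at SARAF and at TACC1, with median ranks of 95.5, 384, 559, 847.5 and 1710.

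The 8q genes with MYC in all 6 libraries were RRS1, PABPC1, EIF3E, PUF60, MFSD3 and RPL8. RRS1 acts in ribosome assembly, PABPC1 binds the poly(A) tails of messenger RNA, EIF3E is a subunit of a translation initiation factor, PUF60 is a splicing factor and RPL8 is a protein of the large ribosomal subunit. The site near MFSD3, a transporter family gene, had ranks of 3, 4 and 4 in WT and 11, 9 and 6 in SLK-KO (144508658 to 144508707, 388 bp from the TSS, with an E-box within 100 bp). The site at EIF3E had ranks of 8, 5 and 5 in WT and 13, 14 and 7 in SLK-KO (108248535 to 108248581, in an exon, with an E-box). Both stood among the 14 best-scored summits of every MYC library. The PABPC1 site lay 1 bp from a TSS, with ranks from 15 to 131, and the RPL8 site lay in the UTR, with ranks from 22 to 185. A site at the TSS of the non-coding gene PVT1, with a median rank of 63, stood between those of PABPC1 (35.5) and RPL8 (79.5).

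In 3 SLK-KO and 0 WT libraries, MYC was found at 6 coding genes of 8q (1.44%, against 0.876% of all coding genes). These were AZIN1 (an inhibitor of antizyme in polyamine regulation), DCAF13 and SLC25A32, SYBU, ENSG00000289653 and MYC itself. Of the sites, the one with the best median rank lay in the coding sequence of MYC (127738355 to 127738503, ranks 45, 116 and 75). The DCAF13 site, 1 bp from a TSS and with an E-box, had ranks of 419, 284 and 230. Rank 419 lies beyond all WT lists of 192 to 352 summits. Ranks 284 and 230 lie beyond the 192 summits of WT replicate 2 but within the 352 of WT replicate 1. The ranks of the first MYC site fall within all 3 WT lists in length. Another site in the MYC coding sequence (127740506 to 127740610) had ranks of 288, 700 and 344. Sites called in this way numbered 6 on 8q (5.26% of its MYC sites, against 7% of all), and 1 was left with equal-length lists, where the background was 1.89%. No 8q site had MYC in all WT libraries and no SLK-KO library, as was the case over all arms (0%).

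Of 26 further genes of 8q chosen by role, POL2 was found at 26, 16 and 23 in WT and 25, 24 and 24 in SLK-KO, and each of the 26 had it in at least 1 library. Of all coding genes of 8q, 53.1, 29.2 and 43.5% had POL2 in the WT libraries and 54.8, 51.2 and 52.2% in the SLK-KO libraries. MYC was found at 12 of the 26 in at least 1 library, against 18.2% of the coding genes of 8q and 9.69% of all coding genes. The 26 include the non-coding genes PVT1 and CASC11, whereas these backgrounds cover coding genes only. CASC11 and MYC had the same best-ranked MYC summits, with ranks of 45, 116 and 75 in SLK-KO. ASAP1, a GTPase-activating protein for ARF GTPases, had MYC in 2 WT and 3 SLK-KO libraries, and ATAD2, a bromodomain protein, in 1 and 3. MTDH, NDRG1 (a stress-responsive gene) and CCNE2 (cyclin E2) had it in 2 SLK-KO libraries each. RAD21 (a cohesin subunit), NCOA2 (a nuclear receptor coactivator), YWHAZ (a 14-3-3 protein), COPS5, PTK2 (focal adhesion kinase) and PRKDC had POL2 but no MYC summit. YWHAZ had POL2 ranks of 158 to 251 in 6 libraries, so a highly ranked POL2 site was present without a called MYC summit.

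Of 6 translation and transcription genes of 8q, POL2 was found at all 6 in every library. It was called in all 6 libraries at 28.2% of the coding genes of 8q and 18.1% of all. MYC was found at RPL8 and PABPC1 in 6 libraries and at RPL7 and RPL30 in 5, and in none at RPS20 and POLR2K. Of 10 genes at the tip of 8q, MYC was found in all libraries at PUF60, and in 1 each at EXOSC4 (a subunit of the RNA exosome) and CYC1 (cytochrome c1). For both lists the MYC background in at least 1 library was 18.2% of the coding genes of 8q and 9.69% of all. HSF1 (the heat shock factor), SCRIB, EEF1D and VPS28 had no POL2 summit within 1 kb in any library. The same held for 41.6% of the coding genes of 8q, while BOP1 had POL2 in SLK-KO replicate 1 alone at rank 18275. In the same window PUF60 had POL2 ranks of 423 to 993. Of these 10 genes at the tip, MYC was thus called at some only. Some MYC sites of this window lay more than 1 kb from every coding TSS, such as a site 41295 bp from DENND3.

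The best-ranked POL2 sites of 8q in all 6 libraries were those at PABPC1, TRIB1, MYC, AZIN1 and EXT1, with median ranks of 25, 39.5, 97, 116.5 and 125.5. TRIB1 is a pseudokinase that guides protein degradation, and EXT1 makes heparan sulfate. Among the 100 best-scored summits of each list, MYC had 9, 8 and 9 on 8q in WT and 9, 10 and 5 in SLK-KO, and 0 on 8p in all 6 libraries. POL2 had 4, 4 and 4 on 8q in WT and 3, 2 and 2 in SLK-KO, and at most 1 on 8p.

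The number of libraries in which a site was called was compared with that of all sites. Of 114 MYC sites on 8q, 6 (5.26%) were in all 6 libraries, against 3.44% of all MYC sites, and 59 (51.8%) were in 1 library, against 57.3%. In at least 2 WT libraries there were 18 (15.8%), against 8.72%. With equal-length lists 5 of 32 MYC sites on 8q (15.6%) were in all 6, against 9.22%. Of 1169 POL2 sites on 8q, 98 (8.38%) were in all 6, against 8.75%, and of 313 on 8p, 18 (5.75%) were. The POL2 sites of 3 SLK-KO and no WT library numbered 36 on 8q (3.08%) and 9 on 8p (2.88%), against 2.98% of all POL2 sites. These POL2 shares of SLK-KO sites lie near the background. With equal-length lists 8 such sites were left on chromosome 8, where the background was 2.54%.

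The POL2 sites of 3 WT and no SLK-KO library numbered 7 on 8q (0.599%) and 0 on 8p, against 0.107% of all POL2 sites. With equal-length lists they numbered 7 of 335 on 8q (2.09%), against 1.1%. The 7 of the full lists lay nearest RDH10, ASAP1, DENND3, ARMC1, AGO2, PTK2 and PPP1R16A. At 5 of the 7 an SLK-KO summit lay within 1 kb, with a median distance of 417 bp over the 7, so that at these 5 a peak was called in both genotypes at different positions. At ASAP1, the WT site (130443487 to 130443578, in the UTR, ranks 696, 1030 and 776) had a counterpart 417 bp away in all 3 SLK-KO libraries (130443995 to 130444037, ranks 781, 2098 and 1343). At ARMC1 the WT and SLK-KO sites were 317 bp apart and at AGO2, which encodes an Argonaute protein, 282 bp. When summits up to 500 bp apart were joined, 3 such sites remained on chromosome 8. No coding gene of 8p or 8q had POL2 within 1 kb in 3 WT and 0 SLK-KO libraries (0.01% of all genes).

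The summits of 8q lay less often at coding promoters than those of the other arms. In WT, 65.4, 75.0 and 83.3% of the 8q MYC summits lay within 1 kb of a coding TSS, against 87.7, 88.1 and 86.4% on the arms of the other chromosomes. In SLK-KO the values were 67.7, 61.4 and 76.6%, against 78.2, 78.7 and 81.3%. For POL2 they were 46.5, 61.4 and 54.8% in WT, against 57.6, 72.3 and 69.7%, and 43.3, 45.6 and 46.6% in SLK-KO, against 54.6, 60.0 and 60.3%. The 8q value was the lower in 12 of 12 libraries, although the Wilson intervals of single WT MYC libraries were wide, as with 60.8 to 94.2% in replicate 3. With summits within 1 kb of a coding TSS only, the MYC minus POL2 difference on 8q was 1.31, and with the other summits only it was 3.04 (exact permutation p = 0.005 in each).

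E-boxes did not set the MYC sites of 8q apart. CACGTG, which reads the same on both strands, was within 100 bp of 35 of the 114 MYC sites on 8q (30.7%), against 30.3% of MYC sites on the other chromosomes. It was within 100 bp of 4.36% of the POL2 sites on 8q and 4.15% on 8p, against 4.70% elsewhere. Within 500 bp of the TSS of coding genes it was present at 20.8% on 8q and 16.2% on 8p, against 18.2% of all coding genes. A match is a description of the sequence and not evidence of binding.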

How the data were processed

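MYC and POL2 ChIP-seq summit lists of 12 libraries (3 per antibody and genotype, grouped by the titles in the labels) were used. Reads were 50 bp paired-end and were processed with nf-core/chipseq 2.1.0 against GRCh38.p14, per the series' design text. Trim Galore 0.6.7, BWA 0.7.18-r1243, Picard 3.2.0 and MACS3 3.0.1 are named, per the submitters' processing notes. The control used for peak calling is not given in the sources used here. Each deposited list gives 1-bp summits called by the authors in a single library with a score, read as −log10 of the q-value since the lowest scores in the lists ranged between 1.30 and 1.43, just above 1.30103 (−log10 of 0.05). Scores are the authors' and were used for nothing but ranking and filtering within a list. Lists hold no read counts, so the read depth cannot be known, and deeper or cleaner libraries cannot be told apart from more binding. Up to 4.48% of a list's summits lay off chromosomes 1 to 22 and X and were left out.

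Coding genes and their TSS came from GENCODE release 44, with 1 TSS per gene for densities, on the hg38 sequence. Arms were compared over 41 arms and 308 windows of at least 5 coding genes. Sites joined summits 250 bp or less apart, and ranks count from the best score of a list. All tests took the library as unit. Genotypes were tested by exact permutation over 20 relabellings (smallest p 0.1), antibodies over 400 relabellings within genotype (0.005) and arms by 64 sign flips over 6 libraries (0.031), two-sided, with Benjamini-Hochberg adjustment over all arms, windows or chromosomes. Shares have Wilson 95% intervals. Each replicate is a separate library, and p-values measure the spread between these libraries. The antibody test was also run on simulated data, whose outcome is not given here.

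Same-numbered POL2 libraries of the genotypes deviated together over the 41 arm densities (correlations 0.472, 0.794 and 0.442), so the numbers were taken as pairs. The lengths of the POL2 lists ran in the same order by number in both genotypes, and their part in these correlations was not tested. Over the windows the correlations were lower, at 0.200, 0.175 and 0.083, and the titles give no pairing across genotypes. Pairing changed no POL2 call (sign flips, 8q exact p = 0.25, the smallest that 3 pairs allow).

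Genes named are 5 lists by place and known role, the 5 best-ranked sites in all libraries or in one genotype only per arm and antibody, and the extreme arms. The genes in every SLK-KO and no WT library, the 4 MYC sites of 8p and the window at the tip of 8q were singled out after their values were seen. One item that these rules select is not reported here. The members, lists and rules were chosen with earlier results of these data known. Alternatives covered list length, a minimum score of 5, merging of summits, promoter and other summits, all transcript starts, density per Mb, windows of 5 Mb, joining at 500 bp, leaving out each library and a replicate block. Software was Python 3.11.15 with scipy 1.17.1, pysam 0.24.0, matplotlib 3.10.9, pandas 2.3.3 and numpy 2.4.6.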

Additional observations from a re-analysis of the deposited data

How the results depend on the processing

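The antibody differences on both arms kept their direction and their side of the threshold under every setting run except the replicate block, where sign flips within same-numbered libraries gave an adjusted exact p of 0.0610 for -0.521 on 8p and 1.41 on 8q, with 0.031 the smallest unadjusted p possible. Same-numbered MYC and POL2 libraries did not deviate together, so this block pairs by number only, and the MYC genotype block (-1.19 on 8q, exact p = 0.25) likewise. With every list cut to 192 summits, the 8p difference rested on 0 or 1 summit per library. Leaving out 1 library gave 1.31 to 1.48 on 8q and -0.57 to -0.50 on 8p. It gave 0.931 to 1.04 for the POL2 long minus short arm difference, where 5 libraries cannot go below an exact p of 0.0625, and 2.73 to 3.07 for MYC. Per Mb of arm the MYC long minus short arm difference was 1.84 (adjusted exact sign-flip p = 0.0469). The unadjusted p is again the smallest 6 libraries allow, so this adjusted value rests on how many chromosomes reach it. Genotype tests cannot pass 0.05, so keeping their side says nothing on stability. Without 1 library, the SLK-KO minus WT value was -1.35 to -1.0 for MYC and -0.28 to -0.07 for POL2 on 8q. On 8p it was 0.0054 to 0.0520 for POL2 and -0.082 to 0.0525 for MYC, the last without WT MYC replicate 3, which holds the only WT summit there. The 8p POL2 value was -0.0187 with equal-length lists and -0.13 with summits away from coding TSS, and the 8p MYC value 0.0749 with the latter. The cause was not tested. With equal-length lists, the SLK-KO minus WT percentage of genes was -0.117 for MYC on 8p, -0.319 for MYC on 8q and -1.44 for POL2 on 8q, all higher in SLK-KO with full lists. Of 27 windows of 5 Mb on chromosome 8, POL2 was above WT in 3 and below in 2, against 17.2% and 11.7% of such windows in the genome, and MYC was below POL2 in 10, against 40%. Equal-length lists gave 1 window with MYC below WT and 4 with POL2 below WT. They left 1 MYC and 8 POL2 sites in 3 SLK-KO and 0 WT libraries on chromosome 8. Joining at 500 bp left 3 POL2 sites in WT only. Without 1 library, MYC sites on chromosome 8 numbered 6 to 18 in SLK-KO only, 0 to 1 in WT only and 6 to 10 in all, and POL2 sites 47 to 104, 9 to 24 and 115 to 215. The removal of the shortest list, WT POL2 replicate 2, gave the 215 and the 24. The window at the tip was left out as an alternative chosen after seeing the data.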
